A study of Mus musculus with 64 samples.

Results

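The integrated stress response genes described here are 30 genes linked to the transcription factor ATF4, chosen by gene symbol from what is known of amino acid, one-carbon and stress metabolism, with no threshold on a measured value but with earlier results of these data known. All 30 were found among the 52636 genes of the count table, and all 30 passed the filter on low counts that left 20249 genes to test. By role they are 7 transcription factors (*Atf4*, *Atf3*, *Atf5*, *Ddit3*, *Cebpb*, *Cebpg* and *Nupr1*), 5 genes of feedback and growth control (*Ddit4*, *Trib3*, *Chac1*, *Sesn2* and *Eif4ebp1*), 6 serine and one-carbon enzymes (*Phgdh*, *Psat1*, *Psph*, *Shmt2*, *Mthfd2* and *Aldh1l2*), 5 other amino acid and phosphoenolpyruvate enzymes (*Asns*, *Aldh18a1*, *Pycr1*, *Cth* and *Pck2*), 3 parts of amino acid transporters (*Slc7a11*, *Slc7a5* and *Slc3a2*) and 4 secreted or surface proteins (*Fgf21*, *Gdf15*, *Stc2* and *Vldlr*).

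In the integrated stress response, kinases that sense amino acid shortage, endoplasmic reticulum stress, viral RNA or mitochondrial trouble phosphorylate the translation factor eIF2. General protein synthesis then falls while the *Atf4* mRNA is translated more, so the level of *Atf4* RNA need not follow the amount of ATF4 protein. ATF4 pairs with C/EBP family members and switches on amino acid transporters, the serine pathway, folate enzymes of mitochondria, and the hormones FGF21 and GDF15, which leave adipose tissue and act on energy balance.

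The libraries were made from total RNA of 2 depots, brown fat (BAT) and epididymal white fat (eWAT), of WT and FANKO mice at zeitgeber time (ZT, hours after lights on) 6, 10, 18 and 22, with 4 samples in each of 16 groups and 64 samples in all. FANKO mice carry *Nampt* with exon 3 floxed (the *Nampt* tm1Jtree allele) and Adiponectin-Cre, so the gene for this enzyme of NAD+ salvage is deleted in adipocytes while other cells of the depot keep it, and WT mice were littermates of that cross without Cre. All mice were males a few months old, fed chow at room temperature; ZT 6 and ZT 10 lie in the light phase and ZT 18 and ZT 22 in the dark phase. The study asked how adipose NAMPT shapes daily gene expression in each depot, and the 30 genes were compared between genotypes, between depots and over the day.

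Values are CPM, counts per 1000000 assigned read pairs of a library, after scaling by the trimmed mean of M values, from libraries of 6117343 to 30544847 assigned read pairs. *Nampt* itself was 479 to 1454 CPM in WT BAT and 109 to 186 CPM in FANKO BAT, with no overlap. In eWAT it was 112 to 310 CPM in WT and 101 to 131 CPM in FANKO samples, and these ranges overlapped (log2 fold change -0.50 ± 0.07 SE, adjusted p = 4.7e-09 in edgeR). The brown adipocyte markers (*Ucp1*, *Cidea* and 5 others) summed to 4477 to 10228 CPM in WT BAT and 14.5 to 30.9 CPM in WT eWAT, as the tissue labels say. The libraries were not alike in other cells, which the plot of cell type marker lists shows. Of 8 macrophage markers 7 were higher in FANKO BAT and *Cd14* was lower, and their sum was 105 to 199 CPM in WT BAT against 713 to 1723 CPM in FANKO BAT. The list holds *Ptprc*, which other leukocytes also express, at means of 14.4 CPM in WT and 424 CPM in FANKO BAT. The sum is thus not of macrophages alone. The 6 lymphocyte markers were all higher in FANKO BAT, at 22.9 to 90.5 CPM against 1.31 to 4.59 CPM in WT BAT. The sum of 6 adipocyte markers was 4662 to 8119 CPM in FANKO BAT and 10063 to 13327 CPM in WT BAT, with 5 of 6 lower and *Lep* not called (-0.20 ± 0.20, adjusted p = 0.387). The brown adipocyte sum was 1291 to 3399 CPM in FANKO BAT, with 4 of 7 lower. The eWAT samples were closer to each other. There 3 macrophage markers were higher and 1 lower, and their sums, 613 to 944 CPM in WT and 598 to 1132 CPM in FANKO samples, overlapped. The brown adipocyte sum of FANKO eWAT, 43.2 to 87.9 CPM, lay above that of WT eWAT. Of its 7 markers 2 were higher (*Cidea* and *Cox7a1*), *Dio2* was lower (-1.72 ± 0.53) and 4 were not called. Among these was *Ucp1* (1.31 ± 0.49, adjusted p = 0.0185), at means of 0.549 CPM in WT and 1.38 CPM in FANKO eWAT. Most of the FANKO eWAT sum was *Cidea* (log2 fold change 3.03 ± 0.16), so the higher sum is not a rise of the list as a whole. Skeletal muscle markers exceeded 100 CPM in 5 WT and 3 FANKO libraries of BAT, and WT eWAT ZT 18 replicate 4 stood apart from the other replicates for several of the genes, so results were also computed without these libraries. In bulk tissue, fewer cells of a type and less RNA per cell cannot be told apart.

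**Figure D1:**
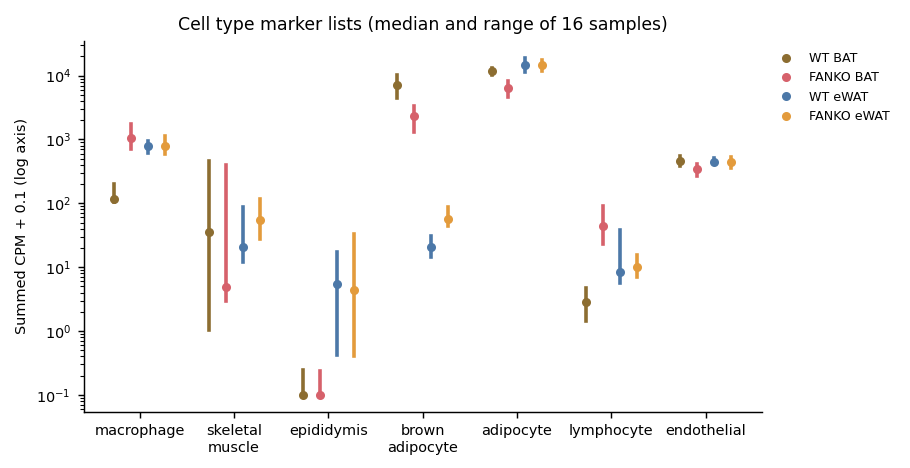
Summed CPM + 0.1 on a log axis for 7 lists of cell type markers, with the median (point) and range (bar) of the 16 samples of each depot and genotype. The macrophage and lymphocyte sums of FANKO BAT lie above those of WT BAT without overlap, the adipocyte and brown adipocyte sums lie below, and the macrophage sums of WT and FANKO eWAT overlap.

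ATF4 dimers are known to bind a composite element with the letters TGATGNAA. RefSeq promoter windows, from 250 bases before to 50 bases from the start site, were at hand for 26 of the 30 genes, and *Eif4ebp1*, *Slc7a5*, *Aldh1l2* and *Cth* had none. These letters, on either strand, stood in the windows of 10 of the 26 (38.5%: *Asns*, *Atf3*, *Chac1*, *Fgf21*, *Nupr1*, *Pck2*, *Pycr1*, *Slc7a11*, *Trib3* and *Vldlr*) and in those of 4.51% of 27025 genes. The form TGATGCAA, a subset of the first, was in 7 of 26 (26.9%) against 1.03% of genes, and the cyclic AMP element TGACGTCA was in 0 of 26 against 2.03%. A match is a description of the letters and not a bound site. The 30 genes were chosen as linked to ATF4, so these shares are not independent of that choice. Stretches around the element are shown for 4 genes whose RNA rose in both depots and for *Asns* and *Vldlr*, which fell in BAT. They are from GRCm38.p6 in the direction of the gene, and capitals mark the element.
Slc7a11 (chr3:50443623-50443709, minus strand): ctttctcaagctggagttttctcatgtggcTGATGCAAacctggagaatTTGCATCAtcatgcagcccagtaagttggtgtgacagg
Fgf21 (chr7:45615592-45615659, minus strand): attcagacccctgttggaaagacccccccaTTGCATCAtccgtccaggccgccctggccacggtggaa
Atf3 (chr1:191183406-191183473, minus strand): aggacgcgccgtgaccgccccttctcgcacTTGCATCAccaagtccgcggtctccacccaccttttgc
Chac1 (chr2:119351019-119351086, plus strand): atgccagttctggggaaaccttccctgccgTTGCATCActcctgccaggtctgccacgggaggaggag
Asns (chr6:7693214-7693243, minus strand): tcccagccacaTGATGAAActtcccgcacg
Vldlr (chr19:27216809-27216838, plus strand): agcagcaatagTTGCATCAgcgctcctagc
The *Slc7a11* stretch holds the element on both strands. Start sites differ between annotations, and the *Asns* and *Vldlr* stretches, placed before the RefSeq start, lie within an exon of the gene in the GENCODE annotation.

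The first comparison asked which of the 30 genes differed between FANKO and WT mice in mean level over the day. In BAT 20 were higher, 8 were lower and *Ddit4* and *Shmt2* did not pass the test. Over all genes tested 33.1% were called higher and 33.9% lower in BAT, 67.0% in either direction. In eWAT 23 were higher, 4 were lower, and *Phgdh*, *Pycr1* and *Vldlr* did not pass, while over all genes 27.6% were called higher, 22.8% lower and 50.3% in either direction. The median log2 fold change of the 30 genes was 0.95 in BAT and 0.76 in eWAT, where that of all genes was -0.02 in eWAT and under 0.01 in BAT. In BAT all 16 FANKO samples lay above all 16 WT samples for 8 of the 30 genes (12.5% of all genes) and below for 3 (10%). In eWAT they lay above for 6 (4.57%) and below for 0 (1.33%). *Ddit3*, *Mthfd2* and *Slc7a11* were the 3 genes without overlap in both depots.

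**Figure D2:**
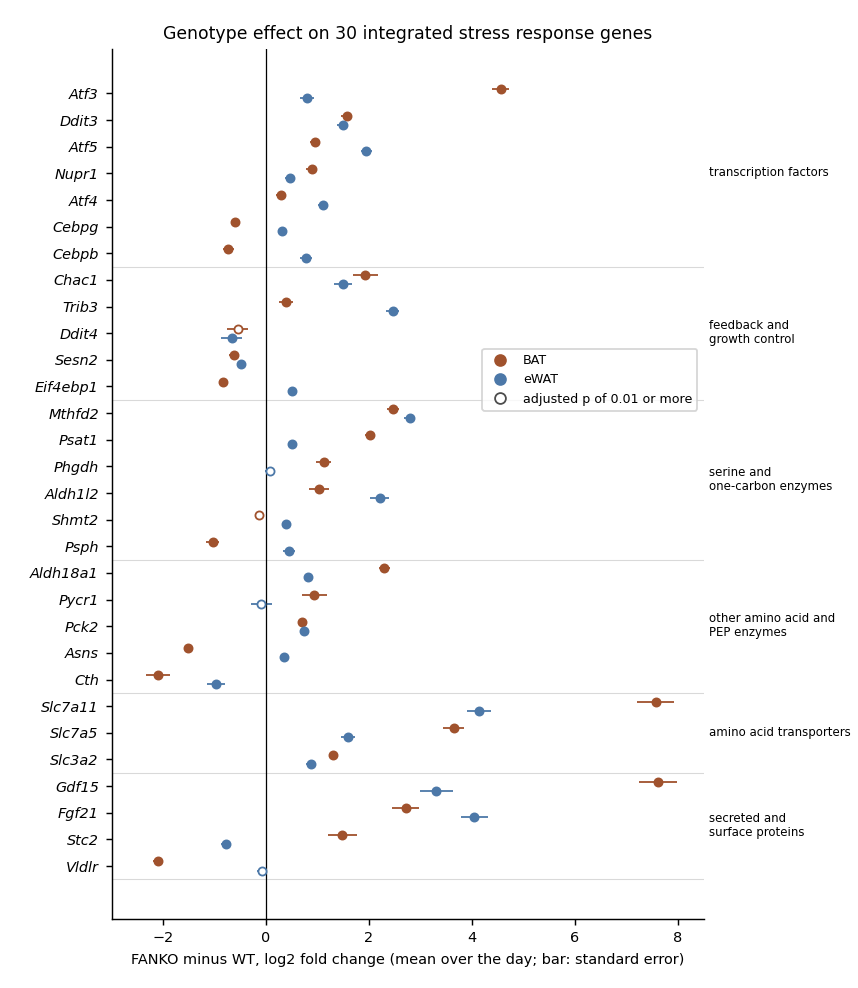
FANKO minus WT log2 fold change (mean over the day, bars are standard errors) of the 30 genes in BAT and eWAT, ordered by role; open points had an adjusted p of 0.01 or more. The eWAT points lie mostly right of 0 (23 higher, 4 lower), and the BAT points run from -2.10 for *Cth* to 7.62 for *Gdf15*.

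The macrophage marker level and genotype cannot be told apart in BAT, where the marker sums of WT and FANKO samples do not overlap. With the log2 macrophage sum as a covariate, an alternative chosen after the data were seen, 8 of the 20 higher genes were still called (*Atf3*, *Atf4*, *Atf5*, *Fgf21*, *Gdf15*, *Mthfd2*, *Psat1* and *Slc7a11*) and 0 of the 8 lower ones, and calls over all genes fell from 13570 to 805. The standard errors of the called genes went from 0.05 to 0.37 without the covariate to 0.25 to 1.29 with it. Of the 20 calls lost, 17 kept their sign and 8 had a log2 fold change at least as large as before, among them *Chac1* (2.61 ± 1.13), *Ddit3* (1.91 ± 0.55) and *Cth* (-2.14 ± 1.29). The rest were smaller or changed sign. *Aldh18a1* went from 2.30 to 0.75 ± 0.47, *Asns* from -1.51 to -0.64 ± 0.35 and *Vldlr* from -2.09 to -1.03 ± 0.41. *Psph* went from -1.04 to -0.16 ± 0.60. Calls that were kept also moved, both up (*Atf4* from 0.28 to 1.87 ± 0.46) and down (*Atf3* from 4.56 to 3.22 ± 0.61). In eWAT the same covariate left 23 genes higher and 4 lower. Some calls depend on the scaling. The median mitochondrial share of counts in BAT was 24.6% for WT and 14.7% for FANKO libraries. For eWAT it was 6.55% (WT) and 10.7% (FANKO). Median scaling factors also differed, at 0.74 (WT) and 1.08 (FANKO) for BAT, against 1.23 (WT) and 1.04 (FANKO) for eWAT. The part of the mitochondrial share in the scaling was not tested. With library size alone the median of all genes shifted to 0.58 in BAT and -0.27 in eWAT, and *Cebpb*, *Cebpg* and *Sesn2* were no longer called lower in BAT.

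All 7 transcription factors were higher in FANKO eWAT, and 5 of 7 were higher in FANKO BAT. *Atf4* (chr15:80255184-80257541), the effector of the response, was 44.5 to 88.0 CPM in WT eWAT (median 55.5) and 79.2 to 196 CPM in FANKO eWAT (median 133), where 14 of 16 FANKO samples exceeded every WT sample. Its log2 fold change was 1.10 ± 0.10 (SE, adjusted p = 2.9e-15). In BAT *Atf4* was 52.9 to 155 CPM in WT and 67.9 to 153 CPM in FANKO samples, nearly the same range. The log2 difference in BAT was 0.28 ± 0.09 (adjusted p = 0.00602), and it missed the threshold without replicate 3 (0.0261), without replicate 4 (0.0349) and without the BAT libraries with muscle markers (0.0255).

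*Atf3* (chr1:191170296-191218039), a stress-induced factor, had its larger effect in BAT (difference between depots 3.77 ± 0.21, adjusted p = 1.9e-23). In WT BAT it was 0.414 to 3.26 CPM (median 1.41) and in FANKO BAT 22 to 45.8 CPM (median 32.4), so the lowest FANKO sample was far above the highest WT sample. The log2 fold change was 4.56 ± 0.16 in BAT (adjusted p = 2.6e-33) and 0.79 ± 0.13 in eWAT (9.7e-07), where WT samples (2.95 to 9.54 CPM) and FANKO samples (4.33 to 14.7 CPM) overlapped. *Atf5*, which is known for its role in mitochondrial stress, was 31.9 to 53.3 CPM in WT eWAT (median 41.4) and 93.2 to 250 CPM in FANKO eWAT (median 159), with no overlap and a log2 fold change of 1.95 ± 0.11. In BAT its log2 fold change was 0.95 ± 0.10. *Ddit3*, the gene of the pro-death factor CHOP, rose in both depots without overlap, from a mean of 19 to 56.2 CPM in BAT and from 14.7 to 40.3 CPM in eWAT, and the test of a difference between depots did not pass (difference 0.08 ± 0.15, adjusted p = 0.626). Its exons overlap those of *Mars* on the opposite strand and of a second gene model of the same symbol, and the strand setting of the counting is not given in the sources used here. Exons of the opposite strand also overlap those of *Atf5* (*Nup62*, *Il4i1*), *Cebpb* (*Tmem189*), *Cebpg* (*Gm45095*, and *Gm44836* on its own strand), *Shmt2* (*Ndufa4l2*) and *Pck2* (*Gm10876*), and the share of such reads in their counts was not tested.

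*Cebpb* and *Cebpg*, genes of C/EBP partners of ATF4, went in opposite directions in the depots. *Cebpb* fell in BAT from a mean of 51.0 to 31 CPM (log2 fold change -0.73 ± 0.11) and rose in eWAT from 9.55 to 15.8 CPM (0.79 ± 0.12). *Cebpg* fell in BAT from 128 to 84.7 CPM (-0.60 ± 0.05) and rose in eWAT from 104 to 129 CPM (0.31 ± 0.05). The BAT calls of both were lost with library size alone and turned sign, uncalled, with the macrophage covariate (0.48 and 0.18). *Nupr1*, a stress-induced chromatin protein, was higher in both depots (0.89 ± 0.10 in BAT and 0.46 ± 0.09 in eWAT).

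In the group of feedback and growth control, 2 of 5 genes were higher and 2 lower in FANKO BAT, and 3 were higher and 2 lower in FANKO eWAT. *Trib3* (chr2:152337422-152344032), a pseudokinase that restrains ATF4, was 3.39 to 6.87 CPM in WT eWAT (median 4.55) and 11.5 to 54.7 CPM in FANKO eWAT (median 26.4). No FANKO value reached down to a WT value there, and the log2 fold change was 2.46 ± 0.13 (adjusted p = 4.7e-24). In BAT *Trib3* was 3.41 to 9.21 CPM in WT and 4.24 to 16 CPM in FANKO samples, with a log2 difference of 0.39 ± 0.13 (adjusted p = 0.00786) that was lost in 6 of the alternatives, among them leaving out replicate 2 (adjusted p = 0.0197), replicate 1 (0.0253) or replicate 4 (0.0303). The difference between the depots was itself called (-2.07 ± 0.18, adjusted p = 2.9e-15).

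*Chac1*, which breaks down glutathione, rose in both depots, by 1.93 ± 0.25 in BAT and 1.5 ± 0.18 in eWAT on the log2 scale. It was a low gene in WT BAT, at 0 to 2.20 CPM and 189 read pairs over 16 libraries. *Sesn2*, which restrains mTORC1, fell in both depots (-0.63 ± 0.10 in BAT and -0.48 ± 0.09 in eWAT), against the direction of most of the list. *Ddit4*, another restraint on mTORC1, fell in eWAT (-0.67 ± 0.20, adjusted p = 0.00273). That call was lost without replicate 2 (0.0439) and without WT eWAT ZT 18 replicate 4 (0.0125), and in BAT the difference was -0.55 ± 0.21 (0.015). *Eif4ebp1*, a repressor of cap-dependent translation, was 108 to 174 CPM in WT BAT and 53.9 to 124 CPM in FANKO BAT, and 110 to 193 CPM in WT eWAT and 184 to 260 CPM in FANKO eWAT. It thus fell in BAT (-0.84 ± 0.08) and rose in eWAT (0.51 ± 0.07).

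Of the 6 serine and one-carbon enzymes 4 were higher and 1 lower in FANKO BAT, and 5 were higher in FANKO eWAT. *Mthfd2* (chr6:83305691-83325908), the mitochondrial folate enzyme of the response, was 1.57 to 4.76 CPM in WT BAT (median 2.56) and 12.9 to 18.9 CPM in FANKO BAT (median 15.1). In eWAT it was 2.84 to 9.24 CPM in WT (median 4.64) and 18.1 to 46.6 CPM in FANKO samples (median 35.2). The genotypes did not overlap in either depot. The log2 fold changes were 2.46 ± 0.12 in BAT (adjusted p = 5.6e-27) and 2.80 ± 0.11 in eWAT (1.9e-30), and their difference did not pass the test (-0.33 ± 0.16, adjusted p = 0.0588). *Aldh1l2*, which oxidises formyl-folate in mitochondria, was low throughout. It was 0.298 to 1.16 CPM in WT eWAT (median 0.553) and 0.699 to 3.69 CPM in FANKO eWAT (median 2.94), with 15 of 16 FANKO samples above every WT sample and a log2 fold change of 2.21 ± 0.18 (adjusted p = 3.0e-16). In BAT it was 1.03 ± 0.20. Its exons overlap *D10Wsu102e* on the opposite strand.

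The serine pathway itself was set apart by depot. *Phgdh*, its first enzyme, was 0.741 to 4.54 CPM in WT BAT and 84.5 to 212 CPM in WT eWAT. *Psat1*, the second, was 2.51 to 6.11 CPM in WT BAT and 102 to 170 CPM in WT eWAT. Both rose in FANKO BAT, *Phgdh* to 3.56 to 6.99 CPM (log2 fold change 1.13 ± 0.15) and *Psat1* to 10.4 to 18.1 CPM (2.02 ± 0.10, no overlap), and both stayed below every eWAT sample. In eWAT *Psat1* rose by 0.51 ± 0.07 and *Phgdh* did not pass the test (0.07 ± 0.10, adjusted p = 0.54). *Psph*, the last enzyme, was lower in FANKO BAT, at a mean of 20.1 against 41.1 CPM (-1.04 ± 0.12), and higher in FANKO eWAT (0.44 ± 0.12, adjusted p = 0.00129), a call lost with library size alone (0.102) and without replicate 2 (0.0472). Its exons overlap *Cct6a* on the opposite strand. *Shmt2*, the mitochondrial serine hydroxymethyltransferase, rose in eWAT (0.39 ± 0.05), and in BAT its difference of -0.13 ± 0.06 was not called, turned to 0.47, called higher, with library size alone, and was -0.18, called lower (adjusted p = 0.00738), without replicate 2.

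Among the other amino acid and phosphoenolpyruvate enzymes 3 of 5 were higher and 2 lower in FANKO BAT, and 3 were higher and 1 lower in FANKO eWAT. *Aldh18a1* (chr19:40550257-40588463), the first enzyme of proline synthesis, was 1.32 to 3.04 CPM in WT BAT (median 2.42) and 7.35 to 15.9 CPM in FANKO BAT (median 11.5), without overlap. The log2 fold change was 2.30 ± 0.10 in BAT (adjusted p = 2.7e-28) and 0.82 ± 0.09 in eWAT (4.7e-12). *Pycr1*, the last enzyme of that pathway, was read by few fragments (87 over the 16 WT BAT libraries). It rose in BAT (0.94 ± 0.25, adjusted p = 0.000639, and 0.0186 without replicate 1) and in eWAT its difference was -0.09 ± 0.21 (adjusted p = 0.735). *Pck2*, which makes phosphoenolpyruvate in mitochondria, rose by 0.70 ± 0.08 in BAT and 0.73 ± 0.08 in eWAT (difference -0.04 ± 0.11, adjusted p = 0.8).

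*Asns* (chr6:7675169-7693254), the asparagine synthetase that is often read as a marker of ATF4 activity, fell in FANKO BAT. It was 85.1 to 136 CPM in WT BAT (median 111) and 27.5 to 52.7 CPM in FANKO BAT (median 37.1), and every FANKO sample lay below every WT sample. The log2 fold change was -1.51 ± 0.07 (adjusted p = 1.9e-27), a mean 2.85-fold lower. In eWAT *Asns* was 51.9 to 178 CPM in WT and 71.8 to 136 CPM in FANKO samples (0.35 ± 0.07), a rise that was lost with library size alone. *Cth* (chr3:157894248-157925077), which makes cysteine by transsulfuration, was 1.33 to 9.70 CPM in WT BAT (median 2.40) and 0.401 to 1.11 CPM in FANKO BAT (median 0.623), again without overlap. Its log2 fold change was -2.10 ± 0.23 in BAT (adjusted p = 3.2e-12) and -0.96 ± 0.17 in eWAT (3.2e-06). The gene thus fell in both depots, where the cystine importer described next rose.

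All 3 transporter genes rose in both depots. *Slc7a11* (chr3:49892526-50443614), the cystine importer subunit xCT, was nearly absent from WT BAT, with 17 read pairs in all over 16 libraries and none in 7 of them, at 0 to 0.275 CPM (median 0.0653). FANKO BAT had 7.44 to 51.5 CPM (median 15) and 4702 read pairs. In eWAT *Slc7a11* was 0.338 to 1.49 CPM in WT (median 0.819) and 3.57 to 32.4 CPM in FANKO samples (median 15.1). The genotypes did not overlap in either depot, and between the depots the FANKO levels gave no call (log2 difference 0.15 ± 0.18, adjusted p = 0.455). The log2 fold change was 7.57 ± 0.36 in BAT (adjusted p = 1.2e-27), a value that rests on those 17 read pairs and ran from 6.72 to 8.13 over the alternatives, and 4.13 ± 0.23 in eWAT (4.7e-23). The highest FANKO value, 51.5 CPM, came from replicate 1 at ZT 18, which was also the highest FANKO BAT sample for *Atf4* (153 CPM), *Ddit3* (101 CPM) and *Nupr1* (86.3 CPM).

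*Slc7a5* (chr8:121881150-121907694), the large neutral amino acid transporter LAT1, was 0.141 to 1.17 CPM in WT BAT (median 0.379, 79 read pairs over 16 libraries) and 3.56 to 7.38 CPM in FANKO BAT (median 4.99), with no overlap. In eWAT it was 2.17 to 7.44 CPM in WT (median 3.64) and 5.63 to 19.9 CPM in FANKO samples (median 11.9), with 14 of 16 above every WT sample. The log2 fold changes were 3.65 ± 0.20 in BAT (adjusted p = 2.8e-24) and 1.59 ± 0.14 in eWAT (2.5e-15). *Slc3a2*, the heavy chain that both of these need at the membrane, started from a high level and rose less, from a mean of 41.0 to 96.6 CPM in BAT (1.31 ± 0.09) and from 66.5 to 124 CPM in eWAT (0.87 ± 0.09).

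The 4 secreted and surface proteins were the least alike. *Gdf15* (chr8:70629393-70632456), a stress hormone that acts on the hindbrain, had 10 read pairs in all over the 16 WT BAT libraries, none in 8 of them, and a highest value of 0.174 CPM. FANKO BAT had 2944 read pairs and 2.47 to 18.2 CPM (median 11.9). In eWAT *Gdf15* was 0.0523 to 0.307 CPM in WT (median 0.139) and 0.178 to 3.68 CPM in FANKO samples (median 1.63), where 15 of 16 FANKO samples exceeded every WT sample. The log2 fold change was 7.62 ± 0.37 in BAT (adjusted p = 4.7e-27), with 6.94 to 8.14 over the alternatives, and 3.31 ± 0.32 in eWAT (1.2e-13). Macrophage markers rose in the same BAT samples (*Cd68* by 4.56 ± 0.14). With their sum as a covariate *Gdf15* was 7.88 ± 1.21 in BAT (adjusted p = 2.5e-06), where that sum and genotype cannot be told apart.

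*Fgf21* (chr7:45613886-45615490), a hormone of fasting and mitochondrial stress, was 0 to 0.714 CPM in WT eWAT (median 0.33) and 1.08 to 18.8 CPM in FANKO eWAT (median 3.97), and no samples overlapped. The log2 fold change was 4.05 ± 0.26 (adjusted p = 3.5e-20). In WT BAT it was 0.106 to 4.15 CPM (median 0.404) and in FANKO BAT 1.25 to 7.35 CPM (median 3.69). Here 5 of 16 FANKO samples exceeded every WT sample, since WT samples at ZT 22 were high, and the log2 fold change was 2.71 ± 0.27 (7.4e-14). *Stc2*, a secreted stanniocalcin, was scarce in WT BAT (0 to 0.35 CPM, 41 read pairs) and rose there (1.48 ± 0.28), while in eWAT it fell from a mean of 23.7 to 14 CPM (-0.78 ± 0.10). *Vldlr*, a lipoprotein receptor and known ATF4 target, was 297 to 660 CPM in WT BAT (median 360) and 67.1 to 119 CPM in FANKO BAT (median 85.1). All FANKO BAT samples were below all WT BAT samples (log2 fold change -2.09 ± 0.09, adjusted p = 5.2e-29), and in eWAT the difference was -0.09 ± 0.09 (0.406).

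**Figure D3:**
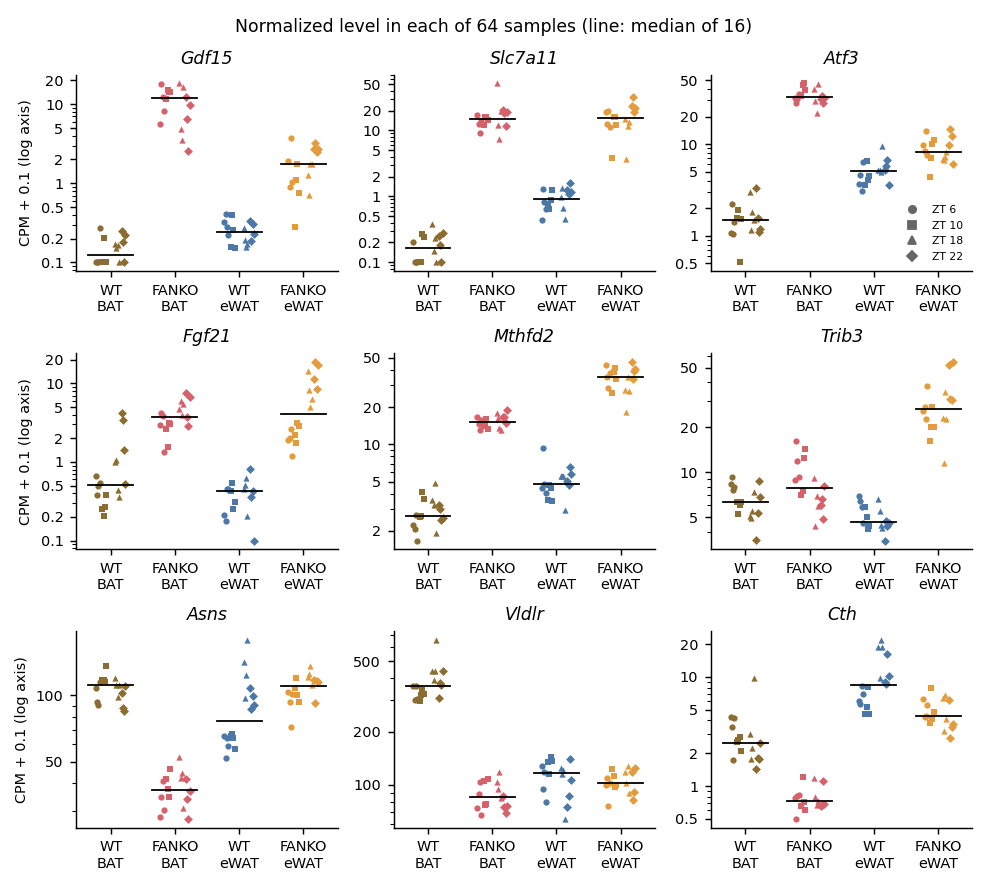
CPM + 0.1 on log axes for 9 of the genes in each of the 64 samples, by depot and genotype, with symbols for the 4 time points and a line at the median of 16 samples. *Gdf15*, *Slc7a11* and *Atf3* separate the genotypes in BAT, *Fgf21*, *Mthfd2* and *Trib3* separate them in eWAT, and *Asns*, *Vldlr* and *Cth* lie lower in FANKO BAT than in WT BAT.

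The second comparison asked whether the genotype effect was the same in BAT and eWAT. It differed between depots for 24 of the 30 genes, where 64.3% of all genes did. It was more positive in BAT for 11 (32.2% of all genes) and in eWAT for 13 (32.1%). The 30 genes fell into groups by their calls. In both depots 17 were higher (9.71% of all genes), and *Cth* and *Sesn2* were lower (7.66%). Opposite calls were made for 6 (18.5% of all genes). They were *Asns*, *Psph*, *Eif4ebp1*, *Cebpb* and *Cebpg*, lower in BAT and higher in eWAT (11.6%), and *Stc2*, higher in BAT and lower in eWAT (6.92%). The 5 genes left were called in 1 depot. *Gdf15* (difference 4.31 ± 0.66), *Atf3* (3.77 ± 0.21) and *Slc7a11* (3.44 ± 0.56) leaned most to BAT, and *Trib3* (-2.07 ± 0.18), *Vldlr* (-2.01 ± 0.13) and *Asns* (-1.86 ± 0.10) most to eWAT. With library size alone 6 genes lost this call and 6 others gained it. With the macrophage covariate *Atf3* alone kept it, with wider errors (0.25 to 1.30), while 18 of the 23 that lost it kept their sign and 6 had a difference at least as large, such as *Gdf15* (4.81 ± 1.26, adjusted p = 0.0116).

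Before any deletion the depots already differed. Of the 30 genes 9 were higher and 14 lower in WT BAT than in WT eWAT, where 32.7% of all genes were higher and 41.1% lower, 73.7% in either direction. With library size alone it was 3 higher and 24 lower. All 14 lower calls and 3 of the 9 higher ones were kept under it, and *Atf4*, *Ddit3*, *Cebpg*, *Shmt2* and *Asns* turned sign. *Cebpb* (2.49 ± 0.12), *Vldlr* (1.76 ± 0.09) and *Psph* (1.2 ± 0.12) were higher in WT BAT under both scalings. *Stc2* (-6.75 ± 0.18), *Phgdh* (-6.11 ± 0.14) and *Psat1* (-5.09 ± 0.10) were the furthest below eWAT on the log2 scale. In FANKO mice 4 genes were higher in BAT than in eWAT (*Atf3*, *Ddit3*, *Cebpb* and *Gdf15*) and 17 were lower, where over all genes 28.1% were higher and 31.6% lower, 59.7% in either direction.

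Levels can be compared between genes per kilobase of exon. In WT BAT *Eif4ebp1* led with a mean of 66.0 CPM per kb, ahead of *Atf5* (39.5), *Asns* (39.3), *Vldlr* (37.5) and *Atf4* (36.2), while *Slc7a11* (0.00574), *Gdf15* (0.0275) and *Stc2* (0.039) were at the bottom. In FANKO BAT *Atf5* led (75.9 CPM per kb), followed by *Atf4* (43.6) and *Eif4ebp1* (36.9), and *Gdf15* was at 5.84 CPM per kb. In WT eWAT the highest were *Phgdh* (68.8), *Eif4ebp1* (67.2), *Asns* (32.5), *Psat1* (28.7) and *Atf4* (25.8). In FANKO eWAT *Eif4ebp1* (95.5), *Atf5* (81.5), *Phgdh* (71.8) and *Atf4* (56.7) were on top. Even after a fold change of 4.13 on the log2 scale, *Slc7a11* stood at 1.12 CPM per kb there, far below *Slc3a2* at 35.2. The order of neighbours in these lists was not tested.

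**Figure D4:**
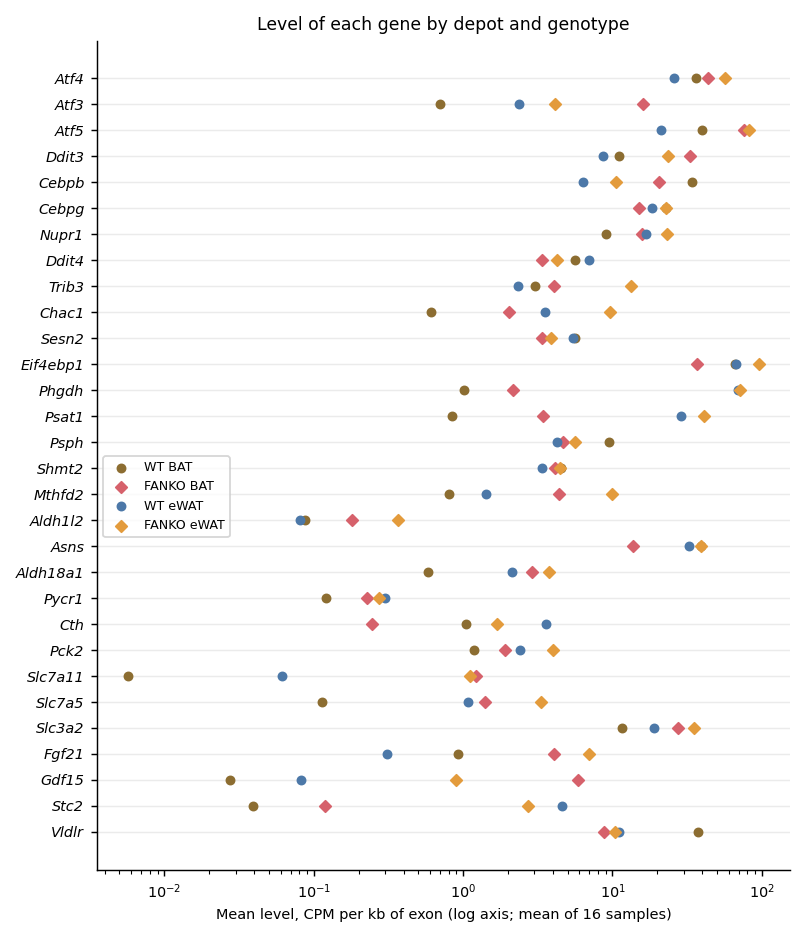
Mean level of each of the 30 genes in CPM per kb of exon on a log axis, with 1 point for each depot and genotype (mean of 16 samples). WT BAT points lie furthest left for *Slc7a11* (0.00574), *Gdf15* (0.0275) and *Stc2* (0.039), and *Phgdh* lies far apart between the depots (68.8 in WT eWAT against 1.01 in WT BAT).

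At single time points the genotypes could be compared by 4 samples against 4. The exact permutation test on log2 CPM, two-sided, reached its smallest p of 0.0286 in 167 of 240 comparisons of gene, depot and time point, which is 0.0411 after Benjamini-Hochberg adjustment over the 240. In BAT 12 of the 30 genes were higher without overlap at ZT 6 (25.4% of all genes) and 7 lower (24.9%). At ZT 10 there were 16 higher (26.7%) and 9 lower (25.7%), at ZT 18 14 higher (20.8%) and 5 lower (20.9%), and at ZT 22 14 higher (24.8%) and 7 lower (23.8%). The lower counts in BAT were thus close to the share of all genes. In eWAT 22 were higher (21.6%) and 3 lower (14.1%) at ZT 6, and 20 higher (22.2%) and 1 lower (15.8%) at ZT 10. In the dark phase 16 were higher (13.5%) and 1 lower (8.20%) at ZT 18, and 18 higher (16.4%) and 2 lower (12.9%) at ZT 22.

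The third comparison asked whether the genes had a daily course with a 24 h period. In WT BAT 5 of the 30 were rhythmic (13.9% of all genes), in WT eWAT 8 (9.38%), in FANKO eWAT 4 (6.77%), and in FANKO BAT 0 (2.84%). In FANKO BAT 7 genes had an unadjusted p under 0.05 and DESeq2 called 1, *Trib3*. The direct test of a rhythm difference between genotypes called 0 genes in BAT (2.76% of all genes), with 8 at an unadjusted p under 0.05 and *Sesn2* called by DESeq2, and 1 in eWAT (1.15%), *Asns*. Rhythm in 1 genotype and not in the other is therefore shown to differ for no more than that gene.

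In WT BAT the rhythmic genes were *Nupr1*, *Ddit4*, *Sesn2*, *Slc3a2* and *Fgf21*. *Sesn2* in WT BAT was 27.5, 27.2, 25.4 and 26.4 CPM at ZT 6 and 25.8, 32.0, 24.2 and 21.9 CPM at ZT 10, against 11.4, 11.2, 10.1 and 7.51 CPM at ZT 18 and 15.7, 13.1, 12 and 18 CPM at ZT 22. Light-phase samples were all above dark-phase samples (adjusted p = 1.9e-08). In FANKO BAT *Sesn2* went from a mean of 13.7 ± 2.22 CPM (SD, n = 4) at ZT 6 to 9.89 ± 1.00 CPM at ZT 18, and the ranges of the genotypes overlapped at ZT 18 but not at ZT 6. The rhythm difference had an adjusted p of 0.0128.

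*Nupr1* ran the other way in WT BAT. It was 17.5, 12.8, 15.7 and 14.7 CPM at ZT 6 and 15.6, 16.1, 10.6 and 14.3 CPM at ZT 10, then 40.8, 31.5, 33.4 and 47.2 CPM at ZT 18 and 20.6, 23.2, 18.7 and 31.9 CPM at ZT 22. All dark-phase samples were above all light-phase samples (adjusted p = 7.6e-08), and in FANKO BAT the means went from 33.1 ± 4.36 CPM at ZT 6 to 51.1 ± 23.7 CPM at ZT 18 (adjusted p = 0.0545). *Slc3a2* was 37.9, 70.2, 37.5 and 82.3 CPM at ZT 6 and 48.1, 51.9, 44.4 and 51.8 CPM at ZT 10 in WT BAT, against 25.5, 23.2, 19.9 and 40.2 CPM at ZT 18 and 35.7, 28.2, 29.6 and 28.9 CPM at ZT 22 (1.9e-06). The phases overlapped there through 1 dark-phase sample of 40.2 CPM. *Ddit4* in WT BAT peaked at ZT 10, with a mean of 18.9 ± 2.27 CPM against 4.13 ± 1.67 CPM at ZT 22 (0.00017), while 1 sample at ZT 18 reached 22.1 CPM.

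In eWAT *Slc3a2* was also rhythmic, and timing was not tested between depots. It was highest at ZT 22 in both genotypes. WT eWAT had 63.9, 59.4, 58.7 and 46.6 CPM at ZT 6, 48.7, 56.9, 43.7 and 47.8 CPM at ZT 10, 74.2, 76.8, 80.2 and 57.8 CPM at ZT 18 and 104, 95.4, 81.0 and 68.7 CPM at ZT 22 (adjusted p = 0.000893). FANKO eWAT had 83.3, 104, 138 and 124 CPM at ZT 6, 71.4, 75.6, 88.8 and 87.1 CPM at ZT 10, 128, 105, 118 and 134 CPM at ZT 18 and 212, 163, 172 and 186 CPM at ZT 22 (7.8e-06). Each FANKO sample at ZT 22 was above every other eWAT sample of the gene. The WT eWAT call was lost in 4 of the alternatives. They were library size alone (adjusted p = 0.0141) and leaving out replicate 1 (0.0171), 2 (0.0206) or 3 (0.0108).

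*Atf4* was rhythmic in eWAT of both genotypes and peaked at ZT 22. In WT eWAT it was 55.4, 55.6, 44.8 and 45.4 CPM at ZT 6, 49.7, 53.4, 46.2 and 44.5 CPM at ZT 10, 79.0, 78.8, 67.2 and 60.3 CPM at ZT 18 and 88.0, 81.7, 69.8 and 54.9 CPM at ZT 22 (adjusted p = 0.00705). In FANKO eWAT it was 110, 85.3, 99.7 and 88.0 CPM at ZT 6 and 105, 79.2, 118 and 92.9 CPM at ZT 10, and it was 185, 148, 149 and 160 CPM at ZT 18 and 186, 180, 156 and 196 CPM at ZT 22 (4.9e-05). Dark-phase samples were all above light-phase samples in FANKO eWAT. The highest time point was 0.91 ± 0.11 (SE) above the lowest on the log2 scale in FANKO and 0.58 ± 0.16 (SE) in WT eWAT. These time points were picked from the same means. The test of a rhythm difference between the genotypes in eWAT did not pass (adjusted p = 0.768). The WT call was lost in 6 of the alternatives, leaving out any of the 4 replicates among them, and the FANKO call in none.

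*Fgf21* had a rhythm in WT BAT and in FANKO eWAT. In WT BAT it was 0.568, 0.283, 0.39 and 0.436 CPM at ZT 6, 0.156, 0.106, 0.165 and 0.282 CPM at ZT 10, 0.895, 0.95, 0.34 and 0.262 CPM at ZT 18 and 4.15, 3.31, 1.34 and 0.418 CPM at ZT 22 (adjusted p = 2.8e-05, lost with limma-voom and without replicate 2). In FANKO eWAT it was 1.82, 1.89, 2.55 and 1.08 CPM at ZT 6, 2.14, 1.67, 2.99 and 2.81 CPM at ZT 10, 14.4, 8.04, 4.95 and 6.32 CPM at ZT 18 and 11.4, 18.8, 8.40 and 17 CPM at ZT 22 (4.9e-08). Dark-phase FANKO eWAT samples were all above light-phase ones. From the lowest to the highest time point the rise was 2.83 ± 0.36 (SE) on the log2 scale. In WT eWAT, at 0 to 0.714 CPM, a daily course was not detectable at this depth (0.804), and the rhythm difference in eWAT did not pass (0.0824). *Trib3* was also rhythmic in FANKO eWAT, with 42.0 ± 13.2 CPM at ZT 22 against 20.8 ± 4.59 CPM at ZT 10 (0.0031), a call lost without replicate 1 or 4.

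*Asns* was the gene of the list with the smallest p for a rhythm, in WT eWAT. It was 65.7, 51.9, 63.8 and 59.0 CPM at ZT 6, 65.7, 66.8, 64.1 and 56.9 CPM at ZT 10, 142, 97.2, 124 and 178 CPM at ZT 18 and 108, 86.4, 99.5 and 90.6 CPM at ZT 22. Dark-phase samples were all above light-phase samples (adjusted p = 5.4e-10), and the call was kept in all alternatives. In FANKO eWAT the lowest mean was 92.3 ± 14.3 CPM at ZT 6 and the highest 123 ± 10.3 CPM at ZT 18 (0.0845). Light-phase FANKO samples were all above light-phase WT samples, and dark-phase FANKO samples lay within the range of the dark-phase WT samples. The difference of the rhythms had an adjusted p of 0.00683, and it went over the threshold in 9 of the alternatives, to 0.0138 without WT eWAT ZT 18 replicate 4 (178 CPM) and to between 0.014 and 0.0929 without each replicate number. *Cth*, which peaked with *Asns* at ZT 18 in WT eWAT (17.2 ± 5.29 against 5.56 ± 1.71 CPM at ZT 10, adjusted p = 0.000488), had an adjusted p of 0.0349 for that difference.

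**Figure D5:**
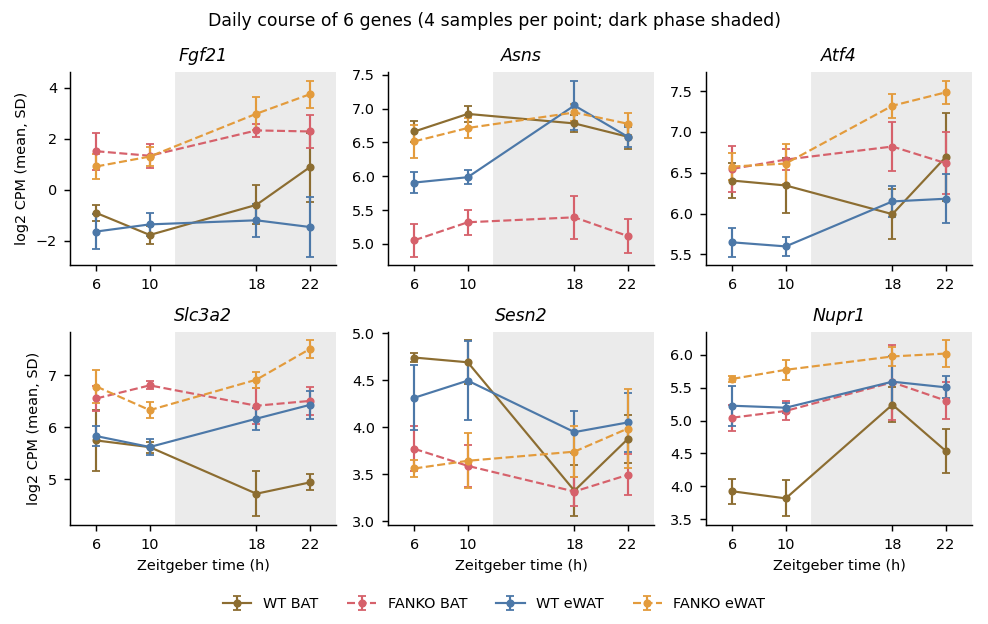
Mean log2 CPM (bars are SD of 4 samples) of 6 genes against zeitgeber time in hours for WT and FANKO BAT and eWAT, with the dark phase shaded. *Fgf21*, *Atf4* and *Slc3a2* climb toward ZT 22 in FANKO eWAT, *Sesn2* and *Slc3a2* drop at ZT 18 in WT BAT where *Nupr1* peaks, and *Asns* peaks at ZT 18 in WT eWAT.

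The other rhythmic genes of WT eWAT were *Ddit3* and *Cebpb*, with peaks at ZT 22, *Ddit4* with its peak at ZT 10 as in BAT, and *Psph*, highest at ZT 22. *Ddit3* was 19.6 ± 2.76 CPM at ZT 22 against 10.7 ± 0.918 CPM at ZT 10 (adjusted p = 0.00129), and *Cebpb* 13.2 ± 4.37 CPM at ZT 22 against 6.11 ± 1.49 CPM at ZT 6 (0.00018). The WT eWAT call was lost in 7 of the alternatives for *Psph* and in 5 for *Ddit4*. It was lost in 2 for *Ddit3*, in 2 for *Cth* and in 1 for *Cebpb*. The count of 8 rhythmic genes in WT eWAT was 2 to 9 when a replicate number was left out.

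The rest of the pathway was read from lists of genes around ATF4. Of 12 genes for the eIF2 kinases, phosphatase subunits and the exchange factor, 3 were higher and 6 lower in FANKO BAT, and 9 were higher and 1 lower in FANKO eWAT. These and the counts of the lists that follow stand beside 33.1% higher and 33.9% lower over all genes in BAT and 27.6% and 22.8% in eWAT. *Ppp1r15a*, the stress-induced phosphatase subunit, rose in BAT (1.18 ± 0.08) and eWAT (1.15 ± 0.08). *Ppp1r15b*, its constitutive counterpart, fell in BAT (-1.10 ± 0.05) and gave 0.10 ± 0.05 in eWAT (adjusted p = 0.0795). *Eif2ak2*, the kinase for double-stranded RNA, rose in BAT (1.55 ± 0.07) and eWAT (0.62 ± 0.07). *Eif2ak1*, the kinase that relays mitochondrial stress, fell slightly in BAT (-0.15 ± 0.04) and rose in eWAT (0.43 ± 0.04).

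Of 18 cytosolic tRNA synthetases, whose genes are classic ATF4 targets, 16 were higher and 0 lower in FANKO eWAT, with a median log2 fold change of 0.55. In FANKO BAT 8 were higher and 4 lower, with a median of 0.01, and the 4 lower were a smaller share of the list than the 33.9% of all genes. *Cars* rose in both depots (0.65 ± 0.05 in BAT and 1.07 ± 0.05 in eWAT), as did *Sars* (0.32 ± 0.05 and 1.06 ± 0.05). *Vars* rose in BAT (0.71 ± 0.05) and gave 0.10 ± 0.05 in eWAT (adjusted p = 0.106). Of 16 genes of the unfolded protein response of the endoplasmic reticulum, 8 were higher and 5 lower in BAT, and 14 were higher and 0 lower in eWAT. *Sdf2l1*, a chaperone cofactor, rose in BAT (2.35 ± 0.14) and eWAT (0.66 ± 0.11). *Ern1*, the sensor IRE1, rose in BAT (0.76 ± 0.06) and gave 0.14 ± 0.06 in eWAT (adjusted p = 0.0425). *Sel1l* (0.21 ± 0.04 in BAT and 0.70 ± 0.04 in eWAT) and *Atf6* (0.27 ± 0.04 and 0.64 ± 0.04) rose in both depots.

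Of 9 genes of the mitochondrial stress response, all 9 were lower in FANKO BAT (median -0.99) and all 9 higher in FANKO eWAT (median 0.50), and the effects differed between depots for each of them. Over all genes 11.6% were lower in BAT and higher in eWAT, and 64.3% differed between depots. *Hspd1* and *Hspe1*, the mitochondrial chaperonin pair, fell in BAT by 1.43 and 1.40 on the log2 scale, with SE 0.06 and 0.07. *Hspa9* (1.10 ± 0.06) and the protease gene *Lonp1* (0.91 ± 0.06) rose in eWAT. These BAT values stand beside the lower adipocyte and brown adipocyte marker sums of the same samples, and the part of that in them was not tested. Of 18 other amino acid and one-carbon genes, 8 were higher and 7 lower in BAT, and 6 higher and 7 lower in eWAT. *Slc7a1*, a cationic amino acid transporter, rose in BAT (2.69 ± 0.10) and eWAT (0.43 ± 0.08). *Slc1a5*, the glutamine transporter, fell in BAT (-1.54 ± 0.08) and eWAT (-0.78 ± 0.08). *Gpt2*, an alanine aminotransferase, fell in eWAT (-1.28 ± 0.10) and gave 0.28 ± 0.10 in BAT (adjusted p = 0.0146). *Xpot*, which exports tRNA from the nucleus, rose in eWAT (0.56 ± 0.04) and fell in BAT (-0.23 ± 0.04).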

How the data were processed

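The authors sequenced ribosomal-depleted stranded total RNA as 38 bp paired-end reads and deposited a table of whole-number counts per Ensembl gene, not normalized. The submitters' processing notes name STAR 2.5.3a, featureCounts 1.5.3, FastQC 0.11.5, MultiQC 1.2 and GRCm38.p5. The settings for strand and for reads with several matches are not given in the sources used here. Assigned counts were 6117343 to 30544847 per library (median 15826651), which limits precision for genes read by a few fragments.

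Groups came from the sample labels. Genes were kept by filterByExpr (minimum count 10, minimum total 15), which left 20249 of 52636 genes, and counts were scaled by the trimmed mean of M values. One edgeR 4.0.16 quasi-likelihood model (R 4.3.3) over all 64 samples had 12 coefficients, a mean and a 24 h cosine and sine for each depot and genotype. Genotype, depot and interaction contrasts of the means, and rhythm tests on the cosine and sine terms, were called at a Benjamini-Hochberg adjusted p below 0.01 over all genes tested. CPM values are linear and log2 CPM used a prior count of 2. Single time points were compared by exact permutation. The labels do not say that samples with the same number share an animal or batch, and p-values measure the spread between these samples. The model was also run on counts simulated from its own fit. They hold no pairing of samples and no genotype difference in cell mixture, so that run does not test either.

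All 30 genes are named. Those given in full are the 8 with the largest change in each depot and the 6 with the smallest p for a rhythm, and the other pathway lists are given as counts with at most 2 genes per depot. The members and lists were chosen with earlier results of these data known. Alternatives were DESeq2 1.42.0, limma-voom (limma 3.58.1), other scalings and filters, time as a factor, a replicate block and leaving out replicates. After the data were seen, 3 were added (a macrophage covariate, leaving out BAT libraries with muscle marker sums above 100 CPM, and leaving out WT eWAT ZT 18 replicate 4). Promoter windows were taken from RefSeq (GRCm38.p6), gene positions from the GENCODE annotation of GRCm38.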

Additional observations from a re-analysis of the deposited data

Results flagged for a closer look

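In 29 of 480 groups of 4 samples tested (30 genes, 16 groups), over 21 of the genes, the highest or lowest sample stood far from the other 3 on the log2 CPM scale. Chance alone gives about 1 in 20 such groups. In WT BAT they were 5.83 for *Atf4* at ZT 10 replicate 3, 4.04 for *Shmt2* at ZT 10 replicate 4, 7.09 for *Asns* at ZT 10 replicate 4, -0.040 for *Pycr1* at ZT 6 replicate 2, -2.15 for *Slc7a11* at ZT 6 replicate 1, -1.92 for *Slc7a5* at ZT 10 replicate 4, -2.13 for *Gdf15* at ZT 10 replicate 2 and -1.75 for *Gdf15* at ZT 6 replicate 4. In WT eWAT they were 3.27 for *Atf3* at ZT 18 replicate 4, 5.31 for *Nupr1* at ZT 10 replicate 1, 3.88 for *Ddit4* at ZT 6 replicate 2, 7.68 for *Phgdh* at ZT 10 replicate 1, 7.09 for *Phgdh* at ZT 18 replicate 4, 2.51 for *Psph* at ZT 18 replicate 4, 3.32 for *Psph* at ZT 6 replicate 2, 1.57 for *Mthfd2* at ZT 18 replicate 4, 4.56 for *Pck2* at ZT 18 replicate 4 and 6.01 for *Vldlr* at ZT 18 replicate 4. In FANKO eWAT they were 5.61 for *Ddit3* at ZT 6 replicate 3, 4.48 for *Cebpb* at ZT 18 replicate 1, 2.90 for *Ddit4* at ZT 18 replicate 3, 7.83 for *Eif4ebp1* at ZT 6 replicate 1 and 6.53 for *Asns* at ZT 22 replicate 2. In FANKO BAT they were 6.21 for *Cebpg* at ZT 22 replicate 3, 6.43 for *Nupr1* at ZT 18 replicate 1, 0.67 for *Chac1* at ZT 22 replicate 3, 0.17 for *Cth* at ZT 22 replicate 3, -0.93 for *Cth* at ZT 6 replicate 2 and 3.69 for *Pck2* at ZT 6 replicate 3. WT eWAT ZT 18 replicate 4 appears for 6 genes, more often than any other library, and FANKO BAT ZT 18 replicate 1 for *Nupr1*.

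The genotype effect (FANKO minus WT log2 fold change) differed between the depots by the interaction test for 24 genes. The difference, BAT minus eWAT, was above 0 for 11, which were *Atf3* 3.77, *Nupr1* 0.43, *Phgdh* 1.06, *Psat1* 1.51, *Aldh18a1* 1.48, *Pycr1* 1.03, *Slc7a11* 3.44, *Slc7a5* 2.06, *Slc3a2* 0.43, *Gdf15* 4.31 and *Stc2* 2.26. It was below 0 for 13, which were *Atf4* -0.82, *Atf5* -0.998, *Cebpb* -1.52, *Cebpg* -0.91, *Trib3* -2.07, *Eif4ebp1* -1.36, *Psph* -1.48, *Shmt2* -0.52, *Aldh1l2* -1.18, *Asns* -1.86, *Cth* -1.13, *Fgf21* -1.34 and *Vldlr* -2.01. With the macrophage marker level as a covariate *Atf3* was the 1 gene still called, though 18 of the 23 others kept their sign with wider errors, and with library size alone 18 of the 24 were.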

How the results depend on the processing

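Over 14 alternatives without the macrophage covariate, 22 of 28 genotype calls in BAT and 21 of 27 in eWAT kept their direction and call. The calls that did not were *Atf4*, *Cebpb*, *Cebpg*, *Pycr1*, *Sesn2* and *Trib3* in BAT and *Asns*, *Cebpg*, *Ddit4*, *Nupr1*, *Psph* and *Shmt2* in eWAT. With library size alone, the 8 genes lower in FANKO BAT became 5, the 8 rhythmic genes of WT eWAT became 3, the 1 rhythm difference in eWAT became 0, and WT BAT against WT eWAT went from 9 higher and 14 lower to 3 and 24. Under it *Ddit4* (0.00903) and *Shmt2* (0.47) in BAT and *Phgdh* in eWAT (-0.17) changed sign, as did the depot differences of the genotype effect of *Atf4* (0.011) and *Shmt2* (0.32), and the WT depot differences of *Atf4* (-0.25), *Ddit3* (-0.33), *Cebpg* (-0.43), *Shmt2* (-0.34) and *Asns* (-0.39). With the macrophage covariate, 8 genes were higher and 0 lower in FANKO BAT and 1 differed between depots. Under it *Cebpb* (0.48), *Cebpg* (0.18) and *Pycr1* (-1.89) changed sign in BAT, as did the depot differences of *Atf4* (0.76), *Atf5* (0.59), *Aldh18a1* (-0.081), *Pycr1* (-1.80) and *Fgf21* (0.89). DESeq2 called 1 rhythmic gene in FANKO BAT and 1 rhythm difference in BAT, as did the filter at a CPM of 1 for the latter, and limma-voom called 2 rhythm differences in eWAT. That count was 0 without the filter on low counts, with time as a factor, and without WT eWAT ZT 18 replicate 4. Leaving out 1 replicate number at a time gave 0 to 1 rhythmic genes in FANKO BAT, 2 to 9 in WT eWAT, 0 to 2 rhythm differences in BAT and 0 to 1 in eWAT, and -0.29 to 0.087 for *Pycr1* in eWAT. Without replicate 2 *Shmt2* was called lower in BAT (-0.18). The macrophage covariate raised the standard errors of called genes in BAT from 0.05 to 0.37 to 0.25 to 1.29. The causes were not tested.

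Deviations of same-numbered samples correlated above 0.1 in 17 of 32 WT and FANKO pairs (median r 0.14, other numbers -0.04) and in 18 of 32 BAT and eWAT pairs (0.12, other numbers -0.03). Own numbers matched best for 21 and 19 of 32, a hint of pairing from the data and not from the design. The samples were not treated as paired, so the tests between genotypes and between depots take no account of such pairing. The replicate block had terms for the replicate number shared by all depots, genotypes and time points, so it does not model pairs within a time point. With it 20 genes were higher and 8 lower in FANKO BAT, and no member's call changed. Depth limits *Slc7a11*, *Gdf15*, *Stc2*, *Slc7a5* and *Pycr1* in WT BAT, each with 10 to 87 read pairs over 16 libraries.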
